A study of Homo sapiens with 2 samples.

Results

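SMAD4, ARID1A, PBRM1, BAP1, IDH1, IDH2, FGFR2 and ERBB2 are 8 genes that are recurrently altered in cholangiocarcinoma, the cancer of the bile duct epithelium. They were chosen by name, and the LV-HOXA5 and LV-HOXA5-NC peak lists were searched for peaks inside each gene or within 3 kb of one of its ends, among 20046 protein-coding genes that the reference GRCh38.p14 places on a chromosome. The peaks come from CUT & Tag, in which an antibody brings a transposase to a protein on DNA and the nearby DNA is cut and tagged for sequencing. The cells were TFK-1, a line of extrahepatic cholangiocarcinoma, and both libraries were made with the same anti-Flag antibody (14793S, CST) from nuclei of cells transduced with a lentivirus and selected with puromycin. LV-HOXA5 cells overexpressed Flag-tagged HOXA5, and LV-HOXA5-NC cells, the normal control of the labels, carried the control virus. There was 1 library per condition, with 15778555 fragments and 8043 peaks in LV-HOXA5 and 1948734 fragments and 635 peaks in LV-HOXA5-NC, so no comparison of the libraries could be checked on replicates and no p-value is given. The HOXA5 came from a viral vector, so the peaks describe an overexpressed, tagged protein.

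HOXA5 is a homeodomain transcription factor, and homeodomains bind short AT-rich sites with a TAAT core. The 8 genes fall into 4 kinds. SMAD4 is the shared partner of the SMAD proteins that carry TGF-beta and BMP signals to the nucleus. ARID1A and PBRM1 encode subunits of the SWI/SNF complexes, which move nucleosomes, and BAP1 removes ubiquitin from histone H2A. IDH1 and IDH2 convert isocitrate to 2-oxoglutarate in the cytosol and the mitochondrion, and their mutant forms make 2-hydroxyglutarate. FGFR2 and ERBB2 are receptor tyrosine kinases. Alterations of IDH1, BAP1 and FGFR2 are known mainly from tumors inside the liver, and those of SMAD4 and ERBB2 more from tumors of the large bile ducts.

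Of the 8 genes, only PBRM1 had an LV-HOXA5 peak by this rule. That is 12.5% of them (exact 95% binomial interval 0.316% to 52.7%), against 20.7% of all protein-coding genes, so the count was no result about the drivers as a group. At the gene ends, with the same limit of 3 kb, no driver gene had a peak (0 of 8, interval up to 36.9%), against 14.9% of all protein-coding genes. In LV-HOXA5-NC, none of the 8 genes had a peak, against 0.649% of all protein-coding genes. Long genes held peaks more often, with 34.2% of the protein-coding genes of 100 kb or more and 17.9% of the shorter ones. PBRM1 (140547 bp) and FGFR2 (120129 bp) belong to the long class, and the other 6 genes span 9001 to 86090 bp.

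The reference start windows of the driver genes are shown to give the sequence next to transcript starts at which no peak was listed. A window is narrower than the 3 kb limit and marks 1 listed transcript start, which for IDH2 is not the outer end of the gene. RefSeq windows of 300 bases in GRCh38.p14, with 250 bases before a transcript start and 50 from it, were at hand for 7 of the 8 genes (all but BAP1) and numbered 13. None of them shared a base with an LV-HOXA5 peak, against 10.7% of the 22198 windows of protein-coding genes. This follows from the counts above and is no further result. Only PBRM1 held a peak, and that lay 14335 bp from its nearer listed start. TAAT was searched on both strands and stood in 6 of the 13 windows, which belong to SMAD4, IDH2, ERBB2 and FGFR2, and in 42.7% of all windows. The longer forms TAATTA and TAATTG, which contain TAAT, stood in 3.39% and 5.88% of all windows, and TGATTAAT (which contains TAAT), TGATTTAT and TGATTGAT, forms bound by HOX proteins together with PBX partners, in 0.523%, 0.613% and 0.369%. Of these 5 longer forms the driver windows held TAATTG, once, upstream of an FGFR2 transcript. Here are 5 driver windows and, for contrast, a window of SHC1, an adaptor of the ERBB receptors. This SHC1 window lay with all of its 300 bases inside an LV-HOXA5 peak. Another SHC1 window, at the transcript start 154970747, shared no base with a peak and also held 1 TAAT match. The printed windows are written 5′ to 3′ on the strand of the gene, with capitals for each match to a searched form on either strand.

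SMAD4, chr18:51029963-51030262, plus strand: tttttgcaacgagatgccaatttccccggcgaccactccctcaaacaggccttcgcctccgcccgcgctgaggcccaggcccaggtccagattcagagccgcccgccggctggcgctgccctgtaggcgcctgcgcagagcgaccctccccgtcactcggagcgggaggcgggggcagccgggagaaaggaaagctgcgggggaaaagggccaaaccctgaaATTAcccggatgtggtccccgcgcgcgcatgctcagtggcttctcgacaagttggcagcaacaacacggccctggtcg

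IDH2, chr15:90100572-90100871, minus strand: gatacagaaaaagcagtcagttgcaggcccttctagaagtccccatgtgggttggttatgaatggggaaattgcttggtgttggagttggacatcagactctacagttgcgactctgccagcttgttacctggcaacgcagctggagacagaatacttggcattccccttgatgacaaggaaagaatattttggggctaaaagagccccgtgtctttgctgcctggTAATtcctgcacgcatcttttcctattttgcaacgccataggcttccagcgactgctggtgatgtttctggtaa

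FGFR2, chr10:121596596-121596895, minus strand: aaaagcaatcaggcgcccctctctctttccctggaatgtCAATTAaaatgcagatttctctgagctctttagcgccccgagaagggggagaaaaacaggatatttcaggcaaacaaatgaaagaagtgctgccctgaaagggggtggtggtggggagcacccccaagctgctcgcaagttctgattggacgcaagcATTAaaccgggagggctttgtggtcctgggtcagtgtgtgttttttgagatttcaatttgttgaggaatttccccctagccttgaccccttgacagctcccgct

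ERBB2, chr17:39687844-39688143, plus strand: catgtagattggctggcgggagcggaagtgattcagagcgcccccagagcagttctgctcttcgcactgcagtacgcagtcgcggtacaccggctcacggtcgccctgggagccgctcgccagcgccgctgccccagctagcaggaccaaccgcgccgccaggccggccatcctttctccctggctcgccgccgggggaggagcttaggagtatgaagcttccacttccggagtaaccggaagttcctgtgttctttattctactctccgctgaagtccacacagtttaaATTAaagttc

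PBRM1, chr3:52685864-52686163, minus strand: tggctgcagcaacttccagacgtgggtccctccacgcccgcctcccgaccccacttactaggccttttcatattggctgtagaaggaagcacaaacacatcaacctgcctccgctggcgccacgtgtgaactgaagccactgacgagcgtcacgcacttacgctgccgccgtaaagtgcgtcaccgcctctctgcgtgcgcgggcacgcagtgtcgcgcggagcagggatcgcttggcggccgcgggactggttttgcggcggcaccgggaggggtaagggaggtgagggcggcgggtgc

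SHC1, chr1:154974327-154974626, minus strand: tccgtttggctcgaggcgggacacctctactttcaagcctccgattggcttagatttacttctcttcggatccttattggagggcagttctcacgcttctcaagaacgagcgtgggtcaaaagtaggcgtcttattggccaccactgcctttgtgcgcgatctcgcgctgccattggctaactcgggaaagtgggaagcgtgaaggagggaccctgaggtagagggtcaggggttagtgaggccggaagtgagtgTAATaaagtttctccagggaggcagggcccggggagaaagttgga

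The TAAT match of SMAD4 began 28 bases before the start, that of IDH2 24 bases before the start and that of ERBB2 40 bases after it. In the FGFR2 window the match to TAATTG began 211 bases and a further TAAT match 54 bases before the start. Both PBRM1 windows, both IDH1 windows and the ARID1A window held none of the searched forms. The 13 windows ranged from 47.3% to 82.3% G and C, around the median of 62.3% over all windows. A match is a stretch of letters and not a site, and the SHC1 window under a peak held 1 TAAT match, 5 bases after the start, while driver windows without a peak held up to 2. Over all windows, TAAT stood in 38.7% of those that met an LV-HOXA5 peak and in 43.2% of those that did not.

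The peak in PBRM1, which encodes a subunit of the PBAF form of SWI/SNF, lay at chr3:52670791-52671264 (474 bp) with its summit at 52670933. PBRM1 spans 52545367 to 52685913 on the minus strand of chromosome 3, and no other gene of the reference lay over the peak. The peak stood 14.6 kb inside the gene from its start and 125.4 kb from its other end, which puts the summit 10.7% of the way along the gene. It was 14335 bp from the nearer of 2 PBRM1 transcript starts in the promoter table. Whether it lay in an exon or an intron was not determined, because the gene table was used without exons.

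The PBRM1 peak was a low one. Its pileup, which counts the fragments that cover the summit, was 10 (exact 95% Poisson interval 4.80 to 18.4), where the median of the list was 17 and the lowest value 8. Its fold enrichment over the local background was 4.51, against a median of 4.82, and its −log10 q-value was 3.16, against a median of 5.57. By fold enrichment it ranked 4790 of 8043, with 59.5% of the peaks above it. It ranked 6440 by −log10 q-value and 7262 by pileup. Its local background was 1.44 fragments, which lay within 0.005 fragments of the genome-wide level of this library, as was the case for 620 of the 8043 peaks (7.71%). With 110 peaks in all having exactly this pileup and fold enrichment, the rank carries ties. Among the 1877 peaks that lay inside a protein-coding gene and over 3 kb from every such gene end, 53.3% had a higher fold enrichment, and the median of this class was 4.61.

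No LV-HOXA5-NC peak overlapped the PBRM1 peak, and only 444 of the 8043 LV-HOXA5 peaks (5.52%) shared 1 bp or more with a control peak. At the depth of the control library, which had 12.4% of the LV-HOXA5 fragments, a pileup of 10 corresponds to 1.235 fragments, whereas the lowest pileup in the control list was 4. A peak of this density was therefore not detectable in LV-HOXA5-NC, and its absence there shows no difference between the cells. The nearest control peak to any driver gene lay 883.1 kb from ARID1A and the most distant of the nearest ones 23260 kb from BAP1.

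**Figure D1:**
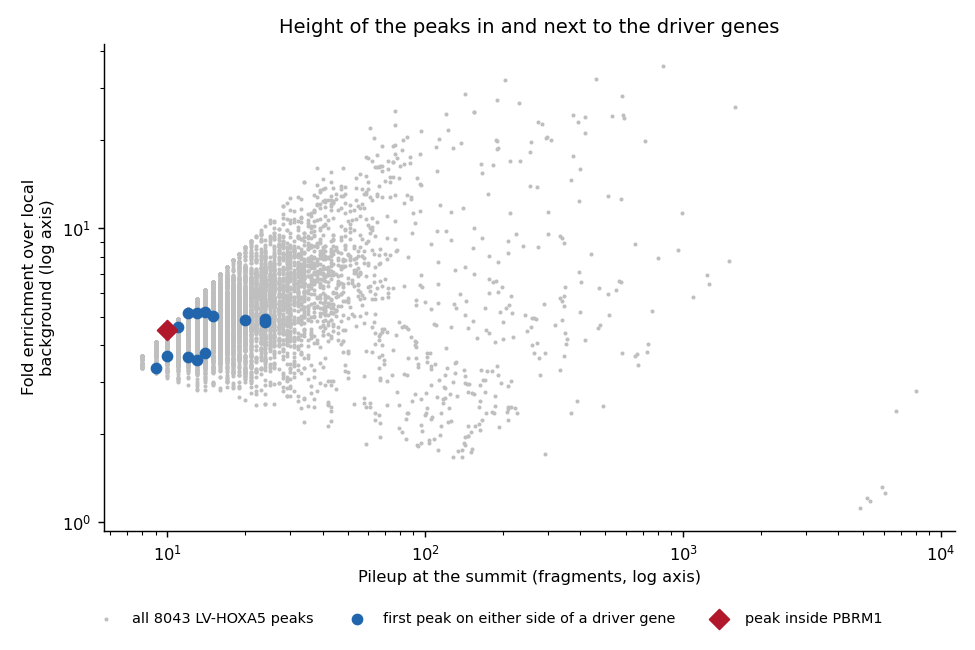
Pileup (fragments, log axis) against fold enrichment over the local background (log axis) for all 8043 LV-HOXA5 peaks in grey, the first peaks on either side of the driver genes in blue and the PBRM1 peak as a red diamond. The PBRM1 peak, at 10 fragments and 4.51-fold, sits at the low end of the pileup, and the flanking peaks lie between 9 and 24 fragments and between 3.35-fold and 5.18-fold.

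For the 7 genes without a peak, the lists set a limit rather than a zero. At the genome-wide background of 1.44 fragments, the lowest listed pileup was 8, which is a 3.69-fold enrichment, and a peak also had to be 246 bp long. Weaker or shorter accumulations of fragments over these genes would not be in the list, and a higher local background raises the pileup that is needed. The number of fragments over a gene without a peak is not given in the lists.

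SMAD4 (chromosome 18, 51030213 to 51085042) had its nearest LV-HOXA5 peak 112.6 kb downstream. That peak (chr18:51197621-51198307) covered an end of MEX3C, an RNA-binding protein gene, with a pileup of 14 and a 5.18-fold enrichment. On the upstream side the first peak was 721.9 kb away, with a pileup of 10 and a 4.51-fold enrichment. SMAD4 thus lay in a stretch of 889.3 kb without a peak, which held 6 protein-coding genes, among them ME2 and ELAC1. A nearer peak was found for 57.7% of all protein-coding genes.

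ARID1A (chromosome 1, 26696015 to 26782104), the largest subunit of the BAF form of SWI/SNF, lay almost midway between 2 peaks. The upstream one, 223.6 kb away, stood 61 bp from an end of HMGN2, a nucleosome-binding protein gene, with a pileup of 11 and a 4.62-fold enrichment. The downstream one, 208.5 kb away, stood 2249 bp from an end of TRNP1 with a pileup of 20 and a 4.87-fold enrichment. The stretch of 518.2 kb between them held 13 protein-coding genes, including RPS6KA1, SFN and NUDC.

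BAP1 (chromosome 3, 52401008 to 52410008) lies 135 kb from PBRM1, and the PBRM1 peak, 260.8 kb away, was also the nearest peak to BAP1. On its other side no peak was listed for 1773 kb, up to a peak 15702 bp from an end of CISH with a pileup of 10 and a 3.67-fold enrichment. Between the CISH peak and the next peak past PBRM1, 13022 bp from an end of DCP1A with a pileup of 13 and a 3.57-fold enrichment, 2.64 Mb of chromosome 3 held 53 protein-coding genes and 1 LV-HOXA5 peak, that of PBRM1. Only 14.5% of all protein-coding genes lay in a longer stretch without a peak than the 2.04 Mb around BAP1.

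IDH1 (chromosome 2, 208236227 to 208255071) came closest to the rule among the genes without a peak. A peak at chr2:208265720-208266147 lay 10649 bp upstream of it, so that it falls outside a limit of 10 kb as well. This peak covered an end of the neighbouring gene PIKFYVE, a lipid kinase, and had a pileup of 13 (interval 6.92 to 22.2), a 5.17-fold enrichment and a rank of 3166. It was given to PIKFYVE by the nearest gene end. On the other side of IDH1 no peak was listed for 524.7 kb, up to one 112 bp from an end of CCNYL1 with a pileup of 15 and a 5.02-fold enrichment.

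IDH2 (chromosome 15, 90083045 to 90102468) had its nearest peak 55.59 kb upstream, at chr15:90158058-90158398, with a pileup of 24 and a 4.92-fold enrichment over a local background of 4.09 fragments. The nearest protein-coding gene end to this peak was that of SEMA4B, 26522 bp away. With 7 LV-HOXA5 peaks within 500 kb of the gene, IDH2 had more peaks around it than 82.1% of the protein-coding genes, where the median was 3. IDH1 had 1 peak in that range, and so had SMAD4, PBRM1 and BAP1. Neither isocitrate dehydrogenase had a peak in the gene or at its ends, although the density of peaks around them differed.

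FGFR2 (chromosome 10, 121478330 to 121598458) was the driver gene farthest from a peak. Its nearest peak lay 443.0 kb downstream with a pileup of 12 and a 5.15-fold enrichment, and 125457 bp from WDR11, the closest protein-coding gene end. The first upstream peak lay 464.7 kb away, with a pileup of 9 and a 3.35-fold enrichment, and TACC2 was its closest protein-coding gene at 73995 bp. A nearer peak was found for 86.5% of all protein-coding genes. The stretch of 1028 kb without a peak held FGFR2, ATE1 and NSMCE4A and no other protein-coding gene in full.

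ERBB2 (chromosome 17, 39688094 to 39728658) lay in a stretch of 467.3 kb without a peak that held 13 protein-coding genes, among them STARD3, PGAP3, MIEN1 and GRB7, neighbours that are often amplified together with ERBB2 in tumors. The first upstream peak stood 226.2 kb away and 35 bp from an end of CDK12, a kinase of transcription elongation, with a pileup of 14 and a 3.76-fold enrichment. The first downstream peak stood 200.5 kb away and 1432 bp from an end of LRRC3C, with a pileup of 24 and a 4.79-fold enrichment. ERBB2 had 5 peaks within 500 kb.

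**Figure D2:**
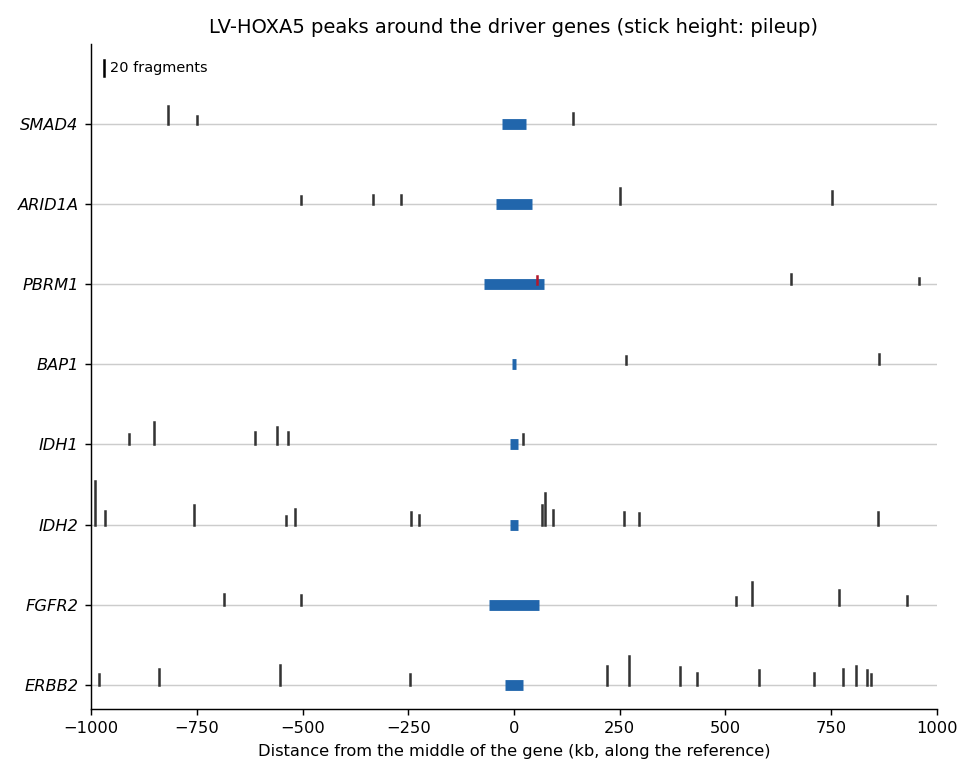
LV-HOXA5 peaks within 1000 kb of the middle of each driver gene, drawn by distance in kb along the reference, with the gene as a blue bar, each peak as a stick whose height is its pileup (scale bar, 20 fragments) and the peak inside PBRM1 in red. Only the PBRM1 bar carries a stick, the IDH1 bar has one 10.6 kb beside it, and FGFR2 stands farthest from its nearest peak.

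In order of distance, the drivers ran from PBRM1, with a peak inside, over IDH1 at 10.6 kb, IDH2 at 55.6 kb, SMAD4 at 113 kb, ERBB2 at 201 kb, ARID1A at 209 kb and BAP1 at 261 kb to FGFR2 at 443 kb. The median of the 8 genes was 156.5 kb and that of all protein-coding genes was 77843 bp. The 8 values are a description of 1 library, and their order has no error from replicates. The 15 different peaks next to the driver genes included the PBRM1 peak, as the neighbour of BAP1. Their pileups ran from 9 to 24, around the list median of 17, and their fold enrichments from 3.35 to 5.18, around 4.82. None of the 15 overlapped an LV-HOXA5-NC peak, as was the case for all but 5.52% of the list. At the depth of the control library their highest pileup corresponds to 2.96 fragments, under the lowest listed control pileup of 4. The local background under them was not even. It was 1.44 fragments at PBRM1, 1.53 and 1.98 beside FGFR2 and 1.71 and 2.19 beside IDH1, but 2.99 and 4.22 beside ERBB2 and 2.56 and 4.09 beside IDH2, the gene with the most peaks around it. Neither chromatin accessibility nor gene copy number was measured in these libraries.

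**Figure D3:**
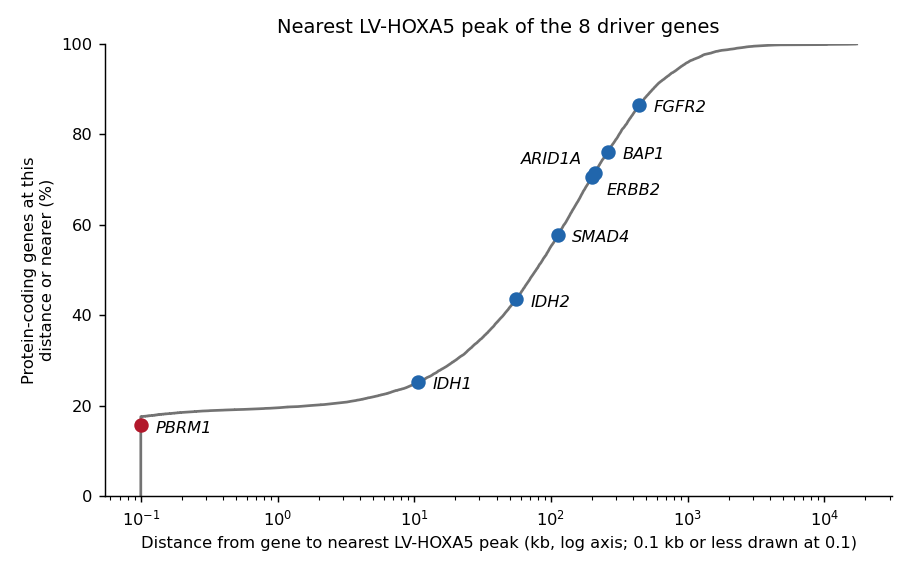
Cumulative share of protein-coding genes (%) by distance to the nearest LV-HOXA5 peak (kb, log axis), as a grey line, with the 8 driver genes as points on it. PBRM1 in red holds its peak, and the other genes in blue run from IDH1 at 10.6 kb to FGFR2 at 443 kb, past 86.5% of all genes.

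The pathway partners of the drivers were searched in the same way. Of 103 partner genes in 6 lists, 23 (22.3%) had an LV-HOXA5 peak, close to the share of 20.7% of all protein-coding genes, and 10 (9.71%) had one within 3 kb of an end, against 14.9%. The share with a peak ran from 11.5% for the SWI/SNF subunits to 40.0% for the isocitrate and 2-oxoglutarate enzymes and for ERBB signaling, lists of 26, 10 and 15 genes. The lists are small and were not matched for gene length, and long genes held peaks more often. The shares are therefore no result about a list. The 42 peaks of the partner genes had a median fold enrichment of 4.54, against 4.82 for the whole list. None of them overlapped an LV-HOXA5-NC peak, against 5.52% of the whole list that did, which with the shallow control library is no result about the partner genes.

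Among the 25 genes of TGF-beta and BMP signaling that converge on SMAD4, 5 had a peak, in each case more than 3 kb from both ends of the gene. SMAD3, which binds SMAD4 directly after TGF-beta signals, held 8 peaks inside its 130 kb, with pileups from 16 to 70 fragments and fold enrichments from 2.59 to 6.73. The local background at these peaks was 3.75 to 12.3 fragments, against 1.44 genome-wide and a median of 2.55 over all LV-HOXA5 peaks. Fold enrichment was under the median of the list for 7 of the 8. Without a control file, this background came from the same library in windows of 10 kb. The peaks starting at 67107074 and 67109452, with backgrounds of 12.3 and 11.7 fragments, therefore lay in each other's background. A high background and a low fold enrichment are thus not independent here. The strongest of the 8 peaks (chr15:67150147-67150752) had a pileup of 70 and a rank of 1086. SMAD2, the other SMAD of this branch, had its nearest peak 73.0 kb away. The ligand gene TGFB2 held 2 peaks with fold enrichments of 4.53 and 4.29, the type II receptor gene TGFBR2 held 1 (4.42-fold), the BMP receptor gene BMPR1B held 2 (4.57-fold and 4.33-fold) and the inhibitory SMAD6 held 1 (4.32-fold).

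Of the 26 other SWI/SNF subunit genes, 3 had a peak. SS18 had a peak over its start (chr18:26090649-26091282) with a pileup of 14 and a 5.48-fold enrichment, and SMARCA2, an ATPase of the complex, had one that ended 133 bp before its start, with a pileup of 10 and a 3.95-fold enrichment. DPF1, a subunit of the neuronal complex, held a peak of 3.92-fold inside the gene. The other ARID genes of the list had none, with the nearest peak 72.1 kb from ARID1B and 82.5 kb from ARID2. Of the 10 partners of BAP1, FOXK2 and MBD5 had a peak. The peak inside FOXK2, a forkhead factor that recruits BAP1 to DNA, had a pileup of 43 and an 8.07-fold enrichment (rank 512), the highest fold among the 42 partner peaks. The peak at MBD5 lay 194 bp from its start with a 5.60-fold enrichment.

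Of the 10 other enzymes of isocitrate and 2-oxoglutarate metabolism, 4 had a peak. OGDH, the 2-oxoglutarate dehydrogenase subunit, had a peak over an end (chr7:44606480-44606949) with a pileup of 28 and a 7.27-fold enrichment. ADHFE1 held a peak of 4.04-fold inside the gene, and IDH3A, IDH3B and IDH3G, the subunits of the third isocitrate dehydrogenase, had their nearest peaks 210 kb, 149 kb and 134 kb away.

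Neither FGFR2 nor its paralogs had a peak, with the nearest 58.3 kb from FGFR1, 358 kb from FGFR3 and 328 kb from FGFR4. Of the 17 FGF signaling genes, 3 had one. DUSP6, a phosphatase that FGF signaling induces, had a peak 41 bp from its start with a pileup of 16 and a 3.91-fold enrichment, FGF2 held one of 5.91-fold inside the gene, and BICC1, a frequent fusion partner of FGFR2 in cholangiocarcinoma, held 2 of 4.61-fold and 5.17-fold. EGFR, a paralog of ERBB2, held 4 peaks inside the gene with pileups of 18 to 28 and fold enrichments of 4.20 to 5.54. The local background at these peaks was 3.52 to 4.23 fragments, against 1.44 genome-wide and a median of 2.55 over all LV-HOXA5 peaks. EGFR is 193 kb long and ERBB2 spans 40565 bp, and long genes held peaks more often. ERBB3 had its nearest peak at 14.4 kb and ERBB4, which is 1160 kb long, at 816 kb. Of the 15 ERBB signaling genes, 6 had a peak, and 3 of them at an end. These included NRG2 (4.88-fold, over its start) and ERRFI1, an inhibitor of the ERBB kinases (4.83-fold, 536 bp from its start). SHC1 was the other (chr1:154974245-154974954, 4.45-fold, over its start), and the window at that start was printed with those of the drivers. The ligand genes NRG1 and EREG held peaks inside, 6 in the 1130 kb of NRG1 with fold enrichments of 4.00 to 7.98, and 1 in EREG (6.06-fold). FOXK2, SMAD3, EGFR, NRG1 and the other genes with peaks far from their ends are named here after their values were seen.

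**Figure D4:**
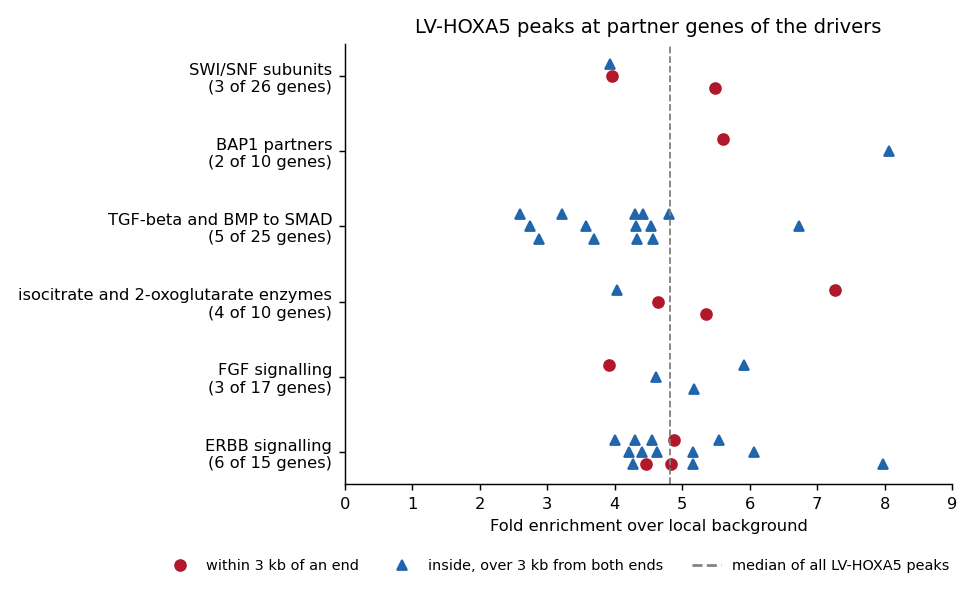
Fold enrichment over the local background for the 42 LV-HOXA5 peaks at partner genes of the drivers, by list, with red circles for peaks within 3 kb of a gene end, blue triangles for peaks farther inside the gene and a dashed line at the median of all LV-HOXA5 peaks (4.82). The TGF-beta and BMP list has blue triangles only, 13 of 14 below the line, and the highest values are those of FOXK2 (8.07-fold) and NRG1 (7.98-fold).

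In LV-HOXA5-NC, 2 of the 103 partner genes, TGFB2 and OGDH, had 1 peak each, both inside the gene. The share of all protein-coding genes with a control peak was 0.649%, and 2 genes are too few to read a difference from it. Both had a pileup of 4 fragments, the lowest value of that list, and lay 28737 bp and 18985 bp from the nearest LV-HOXA5 peak. No other partner gene had a control peak.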

How the data were processed

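Anti-Flag CUT & Tag was done in 1 LV-HOXA5 and 1 LV-HOXA5-NC library of TFK-1 cells, grouped by the treatment in the sample labels. The submitters' processing notes name fastp, Bowtie2, deepTools, MACS2, ChIPseeker and GRCh38. Per the file headers, the authors called peaks with MACS 2.2.7.1 on each library alone, in paired-end mode at a q-value of 0.05 without a control file, from alignments whose name marks them as freed of duplicates. For each peak, the deposited tables hold the pileup signal in fragments (unscaled), a fold enrichment, and the p-value and q-value as −log10. A second deposited file per library repeats its peaks with a whole-number score and served only as a check. The aligner's version is not given in the sources used here.

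The local background was computed as (pileup + 1) / fold − 1. A Poisson p-value made with it matched the authors' −log10 value, to within 0.01, for 8017 of 8043 LV-HOXA5 peaks. With no control file, the background came from the same library, genome-wide or in windows of 10 kb, so nearby peaks count in it. Peaks were placed on RefSeq genes of GRCh38.p14 by any shared base with the gene or 3 kb beyond it, a step tested on simulated data. Genes and lists were matched by symbol, all of them found. Named are the 8 genes, their neighbouring peaks and, per list, up to 4 genes of highest fold with a peak at an end, of which some are not reported here. The members and lists were chosen with earlier results of these data known. Intervals are exact 95% intervals and cover counting error only. Sequences are from RefSeq, and none was read for the peaks themselves. The alternatives kept only peaks up to a q-value of 0.001, or only those from the median fold upward, or used 1 and 10 kb, the summit, unshared peaks only, the nearest gene end, another overlap and other rankings. Python 3.11.15, NumPy 2.4.6, SciPy 1.17.1, pandas 2.3.3 and Matplotlib 3.10.9 were used.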

Additional observations from a re-analysis of the deposited data

How the results depend on the processing

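No paired analysis was possible because each condition had 1 library. With only peaks at or above the median fold enrichment, 0 driver genes and 0 peaks at driver genes were left, since the PBRM1 peak lies below that median. Of the 103 partner genes, 13 then had a peak. The share of all protein-coding genes under the alternative settings is not given here, so counts under them are no result about drivers or partners. The rank of the PBRM1 peak was 4790 by fold enrichment, 6440 by −log10 q-value and 7262 by pileup, and it would be 1456 of 2369 among peaks within 3 kb of a protein-coding gene end. In the other comparisons tried, the counts of driver genes stayed at their main values and those of partner genes ran from 22 to 28. The depth of LV-HOXA5-NC limits what it can show at these genes.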
